A study of Rattus norvegicus with 20 samples.

Results

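The comparison set kidneys collected on day 6 of aristolochic acid I (AAI) treatment against kidneys collected on day 2 of the same treatment, 5 arrays against 5, which are 10 of the 20 arrays of the study. The arrays were chosen by their labelled day and not by any measured value. The rats were male Wistar animals of 80 to 100 g, and the treated ones were given AAI at 40 mg/kg by intraperitoneal injection on a schedule described as running for 6 days. The 2 groups therefore share strain, sex, dose, route and tissue. They differ in the day of collection, and with it in the number of days of dosing and in age. Vehicle rats received polyethylene glycol in water, and vehicle kidneys of day 6 only were on the arrays, so the length of treatment and the age of the rats cannot be told apart between day 2 and day 6. Another 5 arrays came from AAI kidneys of day 4. RNA came from whole kidney tissue, and each array of a group is labelled as a separate kidney.

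AAI is a plant nephrotoxin that proximal tubule cells take up and that binds DNA after it is reduced, and kidney exposed to it loses tubular epithelium and later scars. MicroRNAs (miRNAs) are short RNAs that pair with messenger RNAs mostly through bases 2 to 8 of their 5′ end, the seed, and lower their output; members of a family share a seed. Several have well known settings: the miR-34 family is transcribed under the DNA damage sensor p53, miR-21 is abundant in injured and fibrotic kidney, miR-451 is made in red cell precursors, and miR-192 and miR-194 are rich in kidney epithelium.

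Mature sequences were taken from RefSeq for the rat assembly GRCr8, which held 232 of the 262 tested miRNAs and 28 of the 30 that passed the test below. The first set shows the miRNAs that rose, all but miR-338-5p, and the capitals mark the seed. All 3 members of the miR-34 family carry one seed. Bases were compared position by position from the 5′ end, without gaps. By that count miR-34b-5p and miR-34c-5p differ at 2 of 23 bases, and miR-34a-5p differs from each of them at 11 of 22. The latter count overstates the difference, because miR-34a-5p has 22 bases and the others 23, which puts the bases after the seed out of step. Because of their likeness the array probes for miR-34b-5p and miR-34c-5p may share signal, so their values are not separate evidence. Whether the probes of miR-34a-5p share signal with them was not checked.
miR-34a-5p: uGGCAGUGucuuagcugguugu
miR-34b-5p: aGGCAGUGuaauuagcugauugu
miR-34c-5p: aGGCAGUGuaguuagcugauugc
miR-21-5p: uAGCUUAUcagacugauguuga
miR-21-3p: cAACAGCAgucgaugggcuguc
miR-29a-3p: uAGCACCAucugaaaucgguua
miR-29b-3p: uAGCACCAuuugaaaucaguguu
miR-6216: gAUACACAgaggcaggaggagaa
In GRCr8, miR-34a-5p lies at chr5:165815971-165815992 on the plus strand, inside the interval of a long noncoding RNA gene. miR-34b-5p and miR-34c-5p lie beside each other on the minus strand at chr8:60306657-60306679 and chr8:60306133-60306155, inside the interval of the protein-coding gene Hoatz. Both arms of the miR-21 hairpin lie on the minus strand of chromosome 10, the 5p arm at chr10:71902653-71902674. Whether these intervals are exons or introns was not checked.

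The second set shows the miRNAs that fell and that the account below turns on, again with the seed in capitals. The 3 miR-181 members share a seed and differ at 1 to 4 of 23 bases. miR-181b-5p and miR-181d-5p differ at 1, so their probes may share signal. miR-196a-5p and miR-196c-5p differ at 1 of 22 bases, so their probes too may share signal. miR-203a-3p and miR-203b-3p come from opposite strands of one locus on chromosome 6 and have different seeds.
miR-451-5p: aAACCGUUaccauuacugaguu
miR-146a-5p: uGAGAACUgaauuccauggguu
miR-342-3p: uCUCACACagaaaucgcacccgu
miR-192-3p: cUGCCAGUuccauaggucacag
miR-203a-3p: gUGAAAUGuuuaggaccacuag
miR-203b-3p: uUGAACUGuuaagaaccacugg
miR-181a-5p: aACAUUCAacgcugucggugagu
miR-181b-5p: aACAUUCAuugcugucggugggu
miR-181d-5p: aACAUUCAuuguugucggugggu
miR-196a-5p: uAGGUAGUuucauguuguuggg
miR-196c-5p: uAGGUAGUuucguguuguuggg
miR-451-5p lies on the plus strand at chr10:63459585-63459606.

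From day 2 to day 6, 3 miR-34 members, both arms of miR-21, miR-29a-3p, miR-29b-3p, miR-6216 and miR-338-5p rose, and miR-451-5p fell further than any other miRNA that passed the test. The other miRNAs that fell, among them miR-146a-5p, 3 of 4 miR-181 members, miR-203a-3p and miR-192-3p, did so by 1.20-fold to 1.46-fold. Levels throughout are log2 of a miRNA's summed array signal after each array was divided by its own 75th percentile, so a level of 0 is the signal of a miRNA at that percentile, and levels of different miRNAs depend on their probes and are not set against each other. Of 262 tested miRNAs, 30 (11.5%) passed limma's moderated test at a Benjamini-Hochberg adjusted p under 0.05. There were 9 higher at day 6 (3.44%) and 21 lower (8.02%). At an unadjusted p under 0.05 there were 69 (26.3%). The median change of all 262 was -0.08, and 163 of them (62.2%) had values below 0. Called changes of at least 2-fold were fewer, 4 higher (1.53%) and 1 lower (0.382%). The 2 groups of arrays did not overlap for 26 of the 262 (9.92%), with day 6 above for 7 (2.67%) and below for 19 (7.25%).

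**Figure D1:**
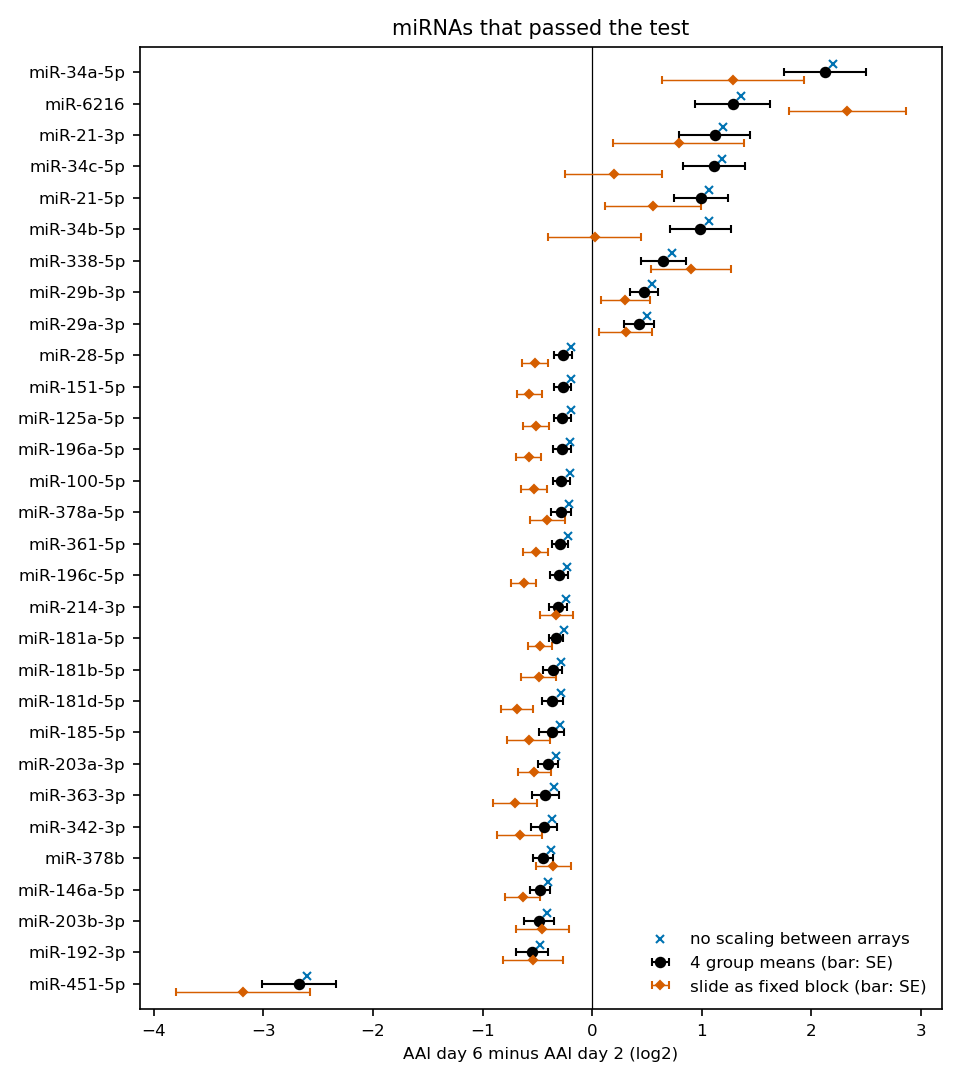
Change from AAI day 2 to AAI day 6 (log2, horizontal axis) of the 30 miRNAs that passed the test, with black points and bars for the estimate and its standard error, orange diamonds for the same in the slide-blocked fit, and blue crosses for the estimate with no scaling between arrays. The blue crosses lie on the same side of 0 as the black points for all 30, and the orange values of miR-34b-5p and miR-34c-5p come to 0.02 and 0.20.

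All day 2 arrays were on one slide (slide 2) and all day 6 arrays on another (slide 1), each read in its own scanning run, so in the direct comparison day and slide cannot be told apart. AAI day 4 arrays were on both slides, 2 on slide 2 and 3 on slide 1, and link them in a fit that takes the slide as a fixed block. Its value is given below as that of the slide-blocked fit. In that fit the median of all tested miRNAs was -0.29, and without day 4 replicate 2 of slide 2 it called 0. That array had 328 detected miRNAs, where the other day 4 arrays had 269 to 284. A pass in the slide-blocked fit is therefore not separate evidence for a change. The number of calls also depended on the scaling: median scaling left 3 higher and 2 lower, spike-in scaling 1 and 1, no scaling 2 and 1. All 30 kept their direction under every scaling tried. Without scaling the rises were 104% to 118% of their reported size on the log2 scale and the falls 71.9% to 97.2%. The median of all tested miRNAs was 0.00 without scaling and -0.18 when the percentile was taken over all miRNAs of the array. Leaving out 1 array brought the count to between 6 (without day 2 replicate 5) and 37 (without day 2 replicate 3). Without day 6 replicate 5 it was 8, and without day 2 replicate 1 or 2 or day 6 replicate 1 or 3 it was 14 to 16. The calls of miR-451-5p, miR-34a-5p, miR-146a-5p, miR-378b, miR-203a-3p and miR-181a-5p held whichever of the 10 arrays was left out. Only those of miR-451-5p and miR-34a-5p also held with median scaling, spike-in scaling and no scaling. Without scaling the limma adjusted p was 0.33 for miR-146a-5p, 0.414 for miR-378b, 0.462 for miR-203a-3p and 0.724 for miR-181a-5p. With spike-in scaling it was 0.123 to 0.47 for these, and with median scaling only miR-378b among them passed (0.0438).

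Signals before scaling were alike in both groups. The 75th percentile intensity was 452 ± 83.6 (SD, n = 5) at day 2 and 480 ± 96.3 (SD, n = 5) at day 6, a ratio of 1.06, and that of the labelling spike-ins was 1.06 as well. No spot was saturated on any array. Markers of the labelled tissue were present: miR-192-5p, miR-194-5p, miR-204-5p, miR-30a-5p and miR-10a-5p were detected on all 10 arrays. Of the 11 listed miRNAs of liver, muscle, brain and pancreas, 4 were detected on 0 of the 10 (among them miR-1-3p of muscle and miR-208a-3p of heart), 3 on all 10 (miR-133b-3p of muscle, miR-9a-5p of brain and miR-375-3p of pancreas), and the other 4, including miR-122-5p of liver, on some. Arrays of a group correlated with each other at 0.933 to 0.996 across tested miRNAs.

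All 3 tested members of the p53-induced miR-34 family rose. On the day 2 arrays, in replicate order, miR-34a-5p stood at -2.46, -1.27, -1.92, -1.27 and -1.69, and on the day 6 arrays at 0.82, -0.17, 0.43, -0.53 and 1.46. Every day 6 kidney lay above every day 2 kidney, and replicate 5 of day 6 was the highest of all. The difference was 2.12 ± 0.37 (SE), a 4.36-fold rise with a 95% interval of 2.53 to 7.52 (limma adjusted p = 0.00283). The day 4 arrays lay at -2.52 to -0.33 and the vehicle mean was -2.52 ± 0.17 (SD, n = 5), so the day 4 kidneys reached from the vehicle level up to those of day 6. In the slide-blocked fit the rise was 1.29 ± 0.65 (adjusted p = 0.121), and within slide 1 the 5 day 6 kidneys averaged 1.49 above the 3 day 4 kidneys, with 1 day 4 array, at -0.33, inside the day 6 range.

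miR-34c-5p stood at -4.54, -4.09, -4.36, -4.31 and -4.56 at day 2 and at -2.41, -3.68, -3.49, -4.08 and -2.65 at day 6. The groups did not overlap, but replicate 4 of day 6 was only just above the highest day 2 kidney. It rose 1.11 ± 0.28 (SE; adjusted p = 0.0246). miR-34b-5p, from the same transcript region, stood at -4.64, -4.16, -4.23, -4.41 and -4.56 at day 2 and at -2.82, -3.64, -3.71, -4.20 and -2.70 at day 6. It rose 0.99 ± 0.28 (SE; adjusted p = 0.0270), with replicate 4 of day 6 inside the day 2 range. Both rises were smaller than that of miR-34a-5p in these values, a difference that was not tested. The slide-blocked fit gave 0.20 (adjusted p = 0.731) and 0.02 (0.974), and from the scanner software's total gene signal they turned to -0.52 and -0.60. The call for miR-34c-5p was lost without day 2 replicate 5 (1.07), day 6 replicate 1 (0.90) or day 6 replicate 5 (0.96), and that for miR-34b-5p without day 2 replicate 1, 4 or 5 or day 6 replicate 1 or 5, where it ran from 0.81 to 0.99.

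The list of p53-induced miRNAs held 6 tested members, of which 3 rose, the miR-34 members, and 0 fell; its median was 0.37 against -0.08 over all tested, but turned to -0.24 against -0.29 in the slide-blocked fit. The other 3 members had values below 0: miR-107-3p -0.26 (adjusted p = 0.0542), miR-192-5p -0.35 (0.0937) and miR-194-5p -0.38 (0.0695). Those last 2 also stand in the kidney-enriched list below. Of the opposite arms, miR-34b-3p was detected on 0 day 2 and 2 day 6 arrays and miR-34c-3p on 0 and 1.

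**Figure D2:**
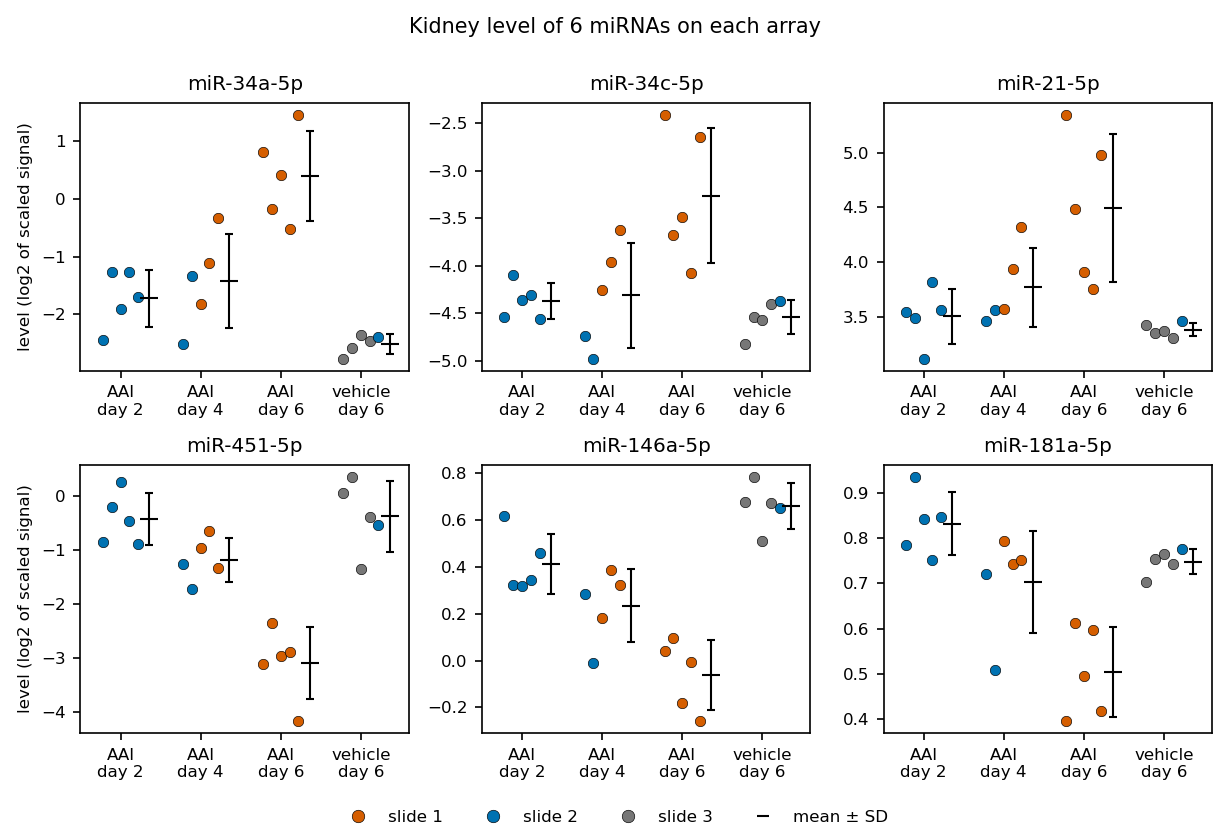
Level of 6 miRNAs (log2 of scaled signal, vertical axes, each with its own range) on each of the 20 arrays, by group, with colours for the slide and black marks for the mean and SD of 5 arrays. miR-34a-5p lies between -0.53 and 1.46 at day 6 and between -2.46 and -1.27 at day 2, and miR-451-5p between -4.17 and -2.36 at day 6 and between -0.88 and 0.26 at day 2, while in miR-21-5p 1 day 6 array lies within the day 2 range.

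miR-21, an abundant miRNA of injured tissue, rose in both of its arms. miR-21-5p stood at 3.55, 3.49, 3.12, 3.82 and 3.56 at day 2 and at 5.34, 4.48, 3.91, 3.76 and 4.98 at day 6. Replicate 4 of day 6 lay within the day 2 range and the other 4 above it. The rise was 0.99 ± 0.24 (SE), 1.99-fold with a 95% interval of 1.39 to 2.84 (adjusted p = 0.0222). As a share of the summed signal of all miRNAs of an array, which needs no scaling, miR-21-5p went from 2.79% ± 0.393 (SD, n = 5) to 5.96% ± 2.62 (SD, n = 5), and its rank from 8 to 2, behind miR-26a-5p in both groups (6.61% and 6.07%).

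The less abundant arm, miR-21-3p, stood at -3.45, -3.24, -4.51, -2.78 and -3.44 at day 2 and at -1.99, -2.18, -2.93, -3.03 and -1.70 at day 6. Day 6 replicates 3 and 4 lay below the highest day 2 kidney. It rose 1.12 ± 0.32 (SE; adjusted p = 0.0317). This was the only hairpin of 44 with both arms tested in which both passed. The 2 arms differed in where day 2 stood against vehicle: for miR-21-3p the day 2 mean was -3.48 and the vehicle mean -5.17, for miR-21-5p 3.51 and 3.38. The slide-blocked rises were 0.55 (adjusted p = 0.318) for the 5p arm and 0.79 (0.298) for the 3p arm. The 5p call was lost without day 2 replicate 5 (1.00) or day 6 replicate 5 (0.87), the 3p call without any of 7 arrays (day 2 replicates 1, 2, 3 and 5, day 6 replicates 1, 2 and 5; 0.86 to 1.18), and the 3p value turned to -0.76 with the software's total gene signal.

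The day 6 kidneys did not rise evenly. Replicates 1 and 5 of day 6 were the highest pair for 5 of the 9 miRNAs that rose, namely all 3 miR-34 members and both miR-21 arms, and replicate 4 was the lowest for those 5. They were the highest pair for 44 of all 262 tested. Replicates 5 and 1 also had the lowest miR-451-5p of the group. The SD was larger at day 6 than at day 2 for 8 of the 9 that rose, for 11 of the 21 that fell and for 175 of all 262.

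miR-29 miRNAs target collagen transcripts and other matrix genes. miR-29b-3p stood at 2.47, 2.19, 2.19, 2.26 and 2.37 at day 2 and at 2.65, 2.83, 2.50, 2.73 and 3.13 at day 6, with no overlap. miR-29a-3p, encoded beside it on chromosome 4, stood at 2.94, 2.97, 2.85, 2.71 and 2.95 at day 2 and at 3.29, 3.38, 3.11, 3.19 and 3.58 at day 6, again with no overlap. The rises were 0.47 ± 0.13 (SE; adjusted p = 0.0250) and 0.43 ± 0.13 (SE; adjusted p = 0.0441). The third member of the list, miR-29c-3p, had a value of 0.12 (adjusted p = 0.508), so 2 of 3 rose and 0 fell, with a median of 0.43. Against vehicle means of 2.32 and 2.97, the day 2 means of miR-29b-3p and miR-29a-3p were 2.30 and 2.88. The slide-blocked rises were 0.30 (adjusted p = 0.295) and 0.31 (0.320), and the miR-29b-3p call was lost without day 2 replicate 2 (0.45), day 2 replicate 5 (0.49) or day 6 replicate 5 (0.38), that of miR-29a-3p without any array except day 6 replicate 4 (0.36 to 0.48).

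The remaining 2 that rose were miR-6216 and miR-338-5p. miR-6216 stood at 0.01, -0.05, -0.76, 0.23 and -0.15 at day 2 and at 1.91, 0.41, 1.64, 1.29 and 0.44 at day 6. The groups did not overlap, and the rise was 1.28 ± 0.34 (SE; adjusted p = 0.0250), or 2.33 (0.00794) in the slide-blocked fit. On slide 2, day 4 replicate 2 reached 1.45. Its call was lost without day 2 replicate 5 (1.28), day 6 replicate 1 (1.09) or day 6 replicate 3 (1.16).

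miR-338-5p, which lies inside the interval of the kinase gene Aatk, was dim, at -5.52 to -4.76 at day 2 and at -5.06 to -4.14 at day 6. It rose 0.65 ± 0.20 (SE; adjusted p = 0.0441) with overlapping groups. Among the day 6 kidneys replicates 5 and 1 were its lowest pair, where the miR-34 members had their highest. The slide-blocked value was 0.90 (adjusted p = 0.0655), that from the deposited series table was -0.76, and leaving out any array except day 2 replicate 1 or day 6 replicate 5 ended the call (0.55 to 0.73).

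The erythroid miRNA miR-451-5p had the largest change of the 262. It stood at -0.85, -0.20, 0.26, -0.45 and -0.88 at day 2, and at -3.11, -2.36, -2.96, -2.89 and -4.17 at day 6. The 5 day 6 kidneys lay far below the 5 day 2 kidneys. It fell by 2.67 ± 0.34 (SE), 6.38-fold with a 95% interval of 3.90 to 10.4 (adjusted p = 7.28e-05). Day 4 kidneys lay between, at -1.73 to -0.64, and the day 2 mean of -0.42 was close to the vehicle mean of -0.37 ± 0.65 (SD, n = 5). The slide-blocked fall was 3.19 ± 0.61 (SE; adjusted p = 0.00515). Within slide 1 all 5 day 6 kidneys were below the 3 day 4 kidneys, with a mean difference of -2.12, and within slide 2 both day 4 kidneys were below all 5 day 2 kidneys, with one of -1.07.

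miR-144, transcribed beside miR-451 on chromosome 10, was too dim to test: miR-144-3p was detected on 3 day 2, 2 day 4, 0 day 6 and 3 vehicle arrays, and miR-144-5p on none. miR-144-3p was the only miRNA detected on at least 3 more day 2 than day 6 arrays. The erythrocyte list thus had 1 tested member of 3 on the array, and its summed level was 0.542 to 1.26 at day 2 and 0.0556 to 0.195 at day 6. The amount of blood in each kidney was not recorded, and its part in the fall was not tested. In whole tissue, fewer cells of a type and less of its RNA per cell cannot be told apart, here and for every miRNA described.

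Of 6 tested leukocyte miRNAs, 2 passed the test and 4 did not, where 30 of all 262 tested passed (11.5%). miR-146a-5p, a feedback inhibitor of NF-kB signalling, stood at 0.62, 0.32, 0.32, 0.35 and 0.46 at day 2 and at 0.04, 0.09, -0.18, -0.01 and -0.26 at day 6, with no overlap. It fell by 0.47 ± 0.09 (SE), 1.39-fold (adjusted p = 0.00464), and by 0.64 (0.00963) in the slide-blocked fit. The vehicle mean was higher than both, at 0.66. Its sister miR-146b-5p, of the same seed, did not pass: its value was 0.71 ± 0.33 (SE, adjusted p = 0.181). The day 6 levels of miR-146b-5p, from -3.79 to -1.36, overlapped the day 2 range of -3.89 to -3.50. Whether the changes of the 2 sisters differ was not tested.

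miR-342-3p, abundant in lymphocytes, stood at -0.40, -0.75, -0.91, -0.70 and -0.61 at day 2 and at -1.17, -1.07, -1.23, -0.81 and -1.31 at day 6. It fell by 0.44 ± 0.12 (SE; adjusted p = 0.0250), with replicate 4 of day 6 inside the day 2 range. It was lost without day 2 replicate 1 or 5 or day 6 replicate 1, 3 or 5 (-0.43 to -0.37). The other leukocyte members did not pass, at -0.15 for miR-142-3p, -0.14 for miR-142-5p, -0.15 for miR-150-5p and 0.17 for miR-223-3p of neutrophils (adjusted p = 0.525 to 0.817). The list had 5 values below 0, 0 rises and a median of -0.15, and its summed level was 3.38 to 3.85 at day 2, 2.67 to 3.53 at day 6 and 4.02 to 4.23 in vehicle kidneys.

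Of the 16 tested miRNAs of the kidney-enriched list, 4 fell (miR-192-3p, miR-203a-3p, miR-196a-5p and miR-196c-5p), 0 rose and 12 did not pass. Over all 262 tested, 21 fell (8.02%). The probes of miR-196a-5p and miR-196c-5p may share signal, so their falls are not separate evidence. The median of the list was -0.20 against -0.08 over all tested. All 16 had values below 0, where 163 of all 262 did, but this depended on the scaling: without it 12 of the 16 and 132 of the 262 were below 0. miR-192-3p, the minor arm of a miRNA of tubular epithelium, stood at -3.24, -3.79, -3.92, -3.53 and -3.64 at day 2 and at -4.21, -4.30, -4.29, -3.69 and -4.38 at day 6. Replicate 4 of day 6 lay within the day 2 range and the other 4 below it. It fell by 0.55 ± 0.15 (SE; adjusted p = 0.0250). Its major arm miR-192-5p and the neighbouring miR-194-5p had values of -0.35 ± 0.13 (SE; adjusted p = 0.0937) and -0.38 ± 0.13 (SE; 0.0695). miR-192-3p was also the exception among the 30 in that its day 4 mean, -3.61, was no lower than its day 2 mean of -3.62.

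miR-203a-3p, an epithelial differentiation miRNA, stood at -0.77, -1.03, -1.18, -0.84 and -1.04 at day 2 and at -1.54, -1.31, -1.44, -1.23 and -1.36 at day 6, with no overlap. It fell by 0.41 ± 0.09 (SE; adjusted p = 0.0136), and by 0.53 (0.0170) in the slide-blocked fit. miR-203b-3p, from the opposite strand of the same locus, stood at -3.23 to -2.53 at day 2 and at -3.69 to -3.02 at day 6. It fell by 0.49 ± 0.13 (SE; adjusted p = 0.0250), with overlapping groups, and had a value of 0.12 with the software's total gene signal. The calls of miR-192-3p and miR-203b-3p ended in the slide-blocked fit (adjusted p = 0.123 and 0.142). Without day 2 replicate 1, 4 or 5 or day 6 replicate 1 or 5 both calls ended, and that of miR-192-3p also without day 6 replicate 3 (-0.55 to -0.45 for miR-192-3p, -0.52 to -0.39 for miR-203b-3p).

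The miR-196 family lies in the Hox gene clusters, as miR-10 does. miR-196c-5p stood at -1.84, -1.79, -1.84, -2.08 and -1.86 at day 2 and at -2.24, -2.06, -2.20, -2.26 and -2.17 at day 6, and fell by 0.31 ± 0.08 (SE; adjusted p = 0.0250). miR-196a-5p stood at -0.14, -0.14, -0.28, -0.36 and -0.16 at day 2 and at -0.60, -0.40, -0.55, -0.48 and -0.44 at day 6, and fell by 0.28 ± 0.08 (SE; adjusted p = 0.0331). The groups of miR-196c-5p overlapped only in that day 6 replicate 2 (-2.06) lay above day 2 replicate 4 (-2.08), and those of miR-196a-5p did not overlap. miR-196b-5p had a value of -0.19 (adjusted p = 0.140), so 2 of the 3 of this seed fell. Both calls were lost without day 2 replicate 1, 2 or 5 or day 6 replicate 1, 3 or 5 (-0.31 to -0.28 and -0.29 to -0.25). The slide-blocked falls were larger, 0.63 and 0.58 (adjusted p = 0.00515 for each).

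The other kidney-enriched members did not pass, from miR-30e-3p at -0.23 (adjusted p = 0.111) and miR-204-5p at -0.22 (0.154) to miR-10b-5p at -0.03 (0.897) and miR-30a-5p at -0.04 (0.831). The separate list of tubule markers, which shares most of its members with it, had 9 tested members, 0 called and a median of -0.15. Its summed level was 49.6 to 56.1 at day 2, 44.4 to 55.5 at day 6 and 53.5 to 58.5 in vehicle kidneys, so the ranges of day 2 and day 6 overlapped.

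The miR-181 family, which acts in lymphocyte development and in the regulation of several signalling inhibitors, fell in 3 of its 4 members. Over all 262 tested, 21 fell (8.02%). The probes of miR-181b-5p and miR-181d-5p may share signal, so their falls are not separate evidence. miR-181a-5p stood at 0.78, 0.93, 0.84, 0.75 and 0.85 at day 2 and at 0.40, 0.61, 0.50, 0.60 and 0.42 at day 6. The groups did not overlap, and it fell by 0.33 ± 0.06 (SE), 1.26-fold with a 95% interval of 1.14 to 1.38 (adjusted p = 0.00504). miR-181b-5p went from -1.92 to -1.71 at day 2 to between -2.35 and -1.99 at day 6 and fell by 0.36 ± 0.09 (SE; adjusted p = 0.0222). miR-181d-5p went from -2.16 to -1.98 at day 2 to between -2.54 and -2.19 at day 6 and fell by 0.36 ± 0.10 (SE; adjusted p = 0.0250). miR-181c-5p had a value of -0.19 (adjusted p = 0.361). The median of the 4 was -0.35. All 3 also passed in the slide-blocked fit, at -0.48, -0.49 and -0.69 (adjusted p = 0.00794, 0.0256 and 0.00757). Leaving out day 2 replicate 5 or day 6 replicate 5 ended the calls of miR-181b-5p (-0.35 and -0.31) and miR-181d-5p (-0.35 and -0.33), and the latter also ended without day 2 replicate 2 (-0.35) or day 6 replicate 1 (-0.34).

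Of the other miRNAs that fell, miR-378b stood at 1.90, 1.99, 1.84, 1.85 and 1.78 at day 2 and at 1.13, 1.64, 1.48, 1.50 and 1.39 at day 6. The groups did not overlap, and it fell by 0.45 ± 0.09 (SE; adjusted p = 0.00573), or by 0.36 (0.0895) in the slide-blocked fit. miR-378a-5p, from inside the gene of the metabolic regulator Ppargc1b, fell by 0.29 ± 0.09 (SE; adjusted p = 0.0487), the call nearest the threshold, and did not pass in the slide-blocked fit (0.0551).

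miR-214-3p, a stromal miRNA that is encoded with miR-199a inside the Dnm3 interval, stood at -1.03, -0.73, -0.80, -1.05 and -0.91 at day 2 and at -1.20, -1.21, -1.15, -1.24 and -1.30 at day 6. It fell by 0.32 ± 0.08 (SE; adjusted p = 0.0250), with no overlap, and by 0.33 (0.0910) in the slide-blocked fit. The miR-199a arms did not pass, at -0.24 (adjusted p = 0.179) and -0.14 (0.504). The stromal and smooth muscle list had 5 tested members, of which 0 rose and 1 fell, with a median of -0.14, and a summed level of 8.73 to 9.24 at day 2 and 7.27 to 9.03 at day 6. The call of miR-214-3p was lost without day 2 replicate 2 (-0.27), day 2 replicate 5 (-0.32) or day 6 replicate 5 (-0.30).

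Further falls were those of miR-363-3p (0.43 ± 0.12, SE), miR-185-5p (0.37 ± 0.11), miR-361-5p (0.30 ± 0.07), miR-100-5p (0.28 ± 0.08), miR-125a-5p (0.27 ± 0.08), miR-151-5p (0.27 ± 0.08) and miR-28-5p (0.27 ± 0.08), with adjusted p from 0.0222 to 0.0430. The day 6 kidneys lay below all day 2 kidneys for miR-363-3p, miR-185-5p, miR-361-5p, miR-125a-5p and miR-151-5p. miR-363-3p belongs to a paralog of the miR-17 cluster, and its neighbour miR-20b-5p had a value of 0.14 (adjusted p = 0.472). With normexp background correction the value of miR-363-3p was 0.01. miR-361-5p was lost without day 2 replicate 5 (-0.30) or day 6 replicate 5 (-0.29), and the other 6, with miR-378a-5p, each without 6 to 8 of the 10 arrays (from among day 2 replicates 1, 2, 4 and 5 and all of day 6), where their changes ran from -0.46 to -0.20. miR-151-5p, miR-28-5p and miR-378a-5p were named after their values were seen.

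Each list, above and below, was read against the 11.5% of all tested miRNAs that passed, 3.44% higher and 8.02% lower. Injured kidney has been reported to hold more of 13 tested miRNAs, of which here 3 rose (miR-34a-5p and both miR-21 arms) and 2 fell (miR-146a-5p and miR-214-3p); their median was 0.17, and -0.33 in the slide-blocked fit. The miR-17 cluster and its paralogs, which accompany proliferation, had 11 tested members, of which 0 rose and 1 fell, and a median of 0.11, or -0.41 slide-blocked; miR-18a-5p had the highest value, 0.51 (adjusted p = 0.199). Of the 5 miRNAs of the miR-99/100 and miR-125 list, 2 fell and 0 rose, with a median of -0.23. All 8 let-7 members had values below 0, from -0.30 to -0.08, but none passed (adjusted p = 0.0937 to 0.636).

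No member passed in the miR-200 family of epithelial identity (5 tested, median 0.00, or -0.42 slide-blocked), the miR-30 family (5 tested, median -0.10), the miR-23/27/24 clusters (7 tested, median -0.04, or 0.04 without scaling) or the list of miR-15, miR-16 and their relatives miR-322 and miR-503 (10 tested, median -0.06, or 0.02 without scaling). In that last list miR-503-5p, which arrests the cell cycle, had a value of 0.52 ± 0.17 (SE; adjusted p = 0.0617) and miR-15b-5p one of -0.29 ± 0.09 (SE; 0.0521). The activity and hypoxia list held miR-212-3p at 0.497 (adjusted p = 0.0657), miR-132-3p at 0.46 (0.362) and the hypoxia miRNA miR-210-3p at -0.08 (0.822); its median of 0.46 was -0.18 slide-blocked. The endothelial miR-126a arms had values of -0.15 and -0.08. In the imprinted Dlk1-Dio3 region, 8 of 27 members were tested, 0 passed and the median was 0.12. Of 11 miRNAs of liver, muscle, brain and pancreas, 3 were tested and 0 passed.

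**Figure D3:**
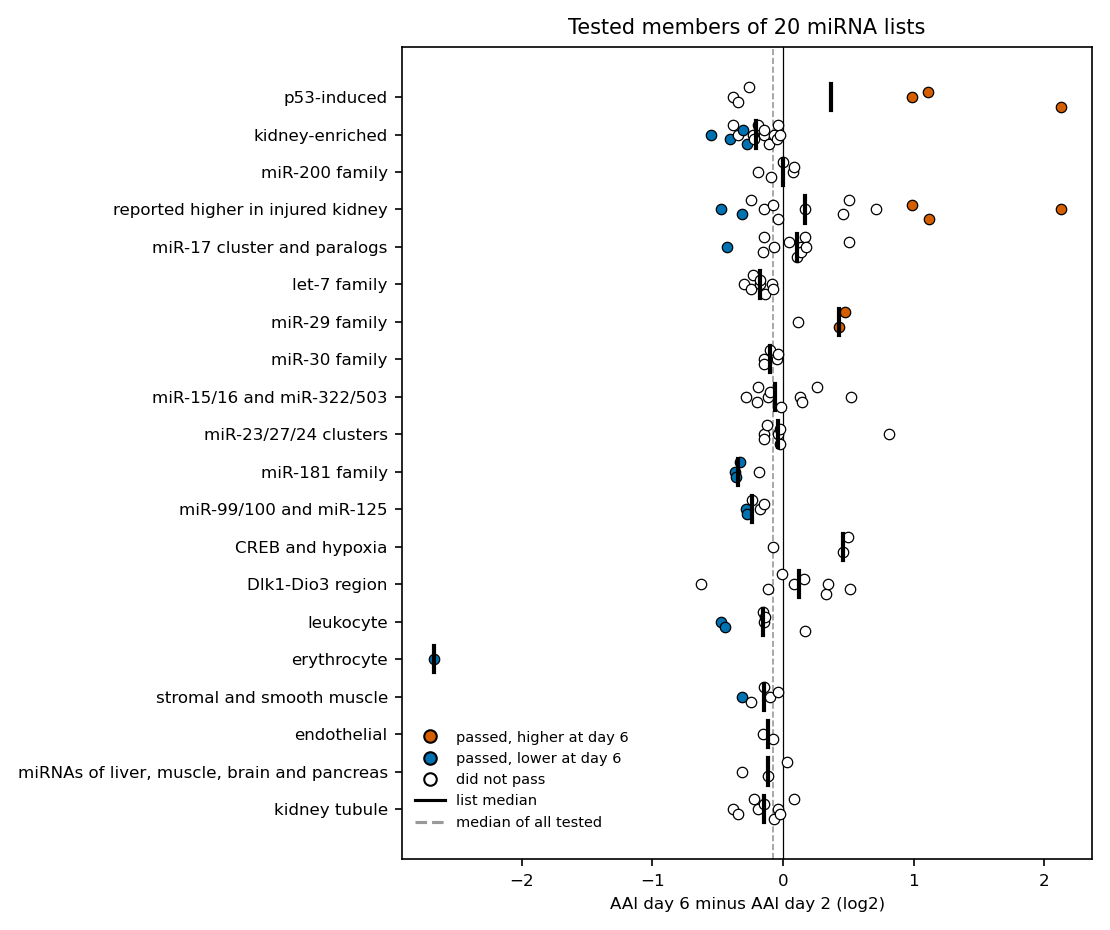
Change from AAI day 2 to AAI day 6 (log2, horizontal axis) of every tested member of 20 miRNA lists, with filled points for members that passed the test, black ticks for the list median and a dashed line at the median of all 262, -0.08. The miR-34 members stand to the right at 0.99 to 2.12, the 16 kidney-enriched members lie between -0.55 and -0.03, and the erythrocyte list is the single point of miR-451-5p.

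By seed, all 3 tested miR-34 members, 2 of 3 miR-29 members, 3 of 4 miR-181 members and 2 of 3 miR-196 members passed in one direction, while of the 2 of the miR-146 seed 1 fell and the other had a value above 0. Probes of close sequences may share signal (miR-34b-5p with miR-34c-5p, miR-181b-5p with miR-181d-5p, miR-196a-5p with miR-196c-5p), so these members are not separate evidence. Among the 44 hairpins with both arms tested, 25 had arms of the same sign, and 4 had at least 1 arm called. Neighbours within 10 kb that passed together, in the array's rn4 coordinates, were miR-34b-5p with miR-34c-5p, miR-29a-3p with miR-29b-3p, miR-181a-5p with miR-181b-5p and miR-203a-3p with miR-203b-3p. Base composition was alike in the called and other miRNAs: the median GC content was 45.5% in those that rose, 45.5% in those that fell and 47.8% in those not called.

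The day 4 mean lay between the means of day 2 and day 6 for all 9 that rose and for 20 of the 21 that fell, and for 162 of all 262. Day 4 arrays were on both slides, and the called miRNAs were selected by the gap between the other 2 days. These counts therefore cannot tell day from slide and are a description only. On slide 1 alone, day 6 minus day 4 had the direction of the call for all 30; over all 262 it was below 0 for 176 and above for 86. There the day 6 kidneys did not overlap with the 3 day 4 kidneys for 12 of the 21 that fell, against 31 of all 262 tested that lay below (11.8%), and for 1 of the 9 that rose, miR-6216, against 16 that lay above (6.11%). On slide 2 alone, day 4 minus day 2 had the direction of the call for 20 of the 21 that fell and for 6 of the 9 that rose; over all 262 it was below 0 for 181 and above for 81. Because these within-slide values use the same day 6 and day 2 arrays that made the calls, they are given as a description and not as separate evidence. The 3 exceptions were the miR-34 members, whose 2 day 4 kidneys of slide 2 had mean differences of -0.56 to -0.21 from day 2. The slide-blocked fit called 95, of which 28 were higher, 67 lower and 17 among the 30; the median of all tested was then -0.29. That count rested on day 4 replicate 2, 1 of the 2 day 4 arrays of slide 2 that link it to slide 1. Without that array the link rested on the other alone, and 0 passed in limma (57 at an unadjusted p under 0.05).

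**Figure D4:**
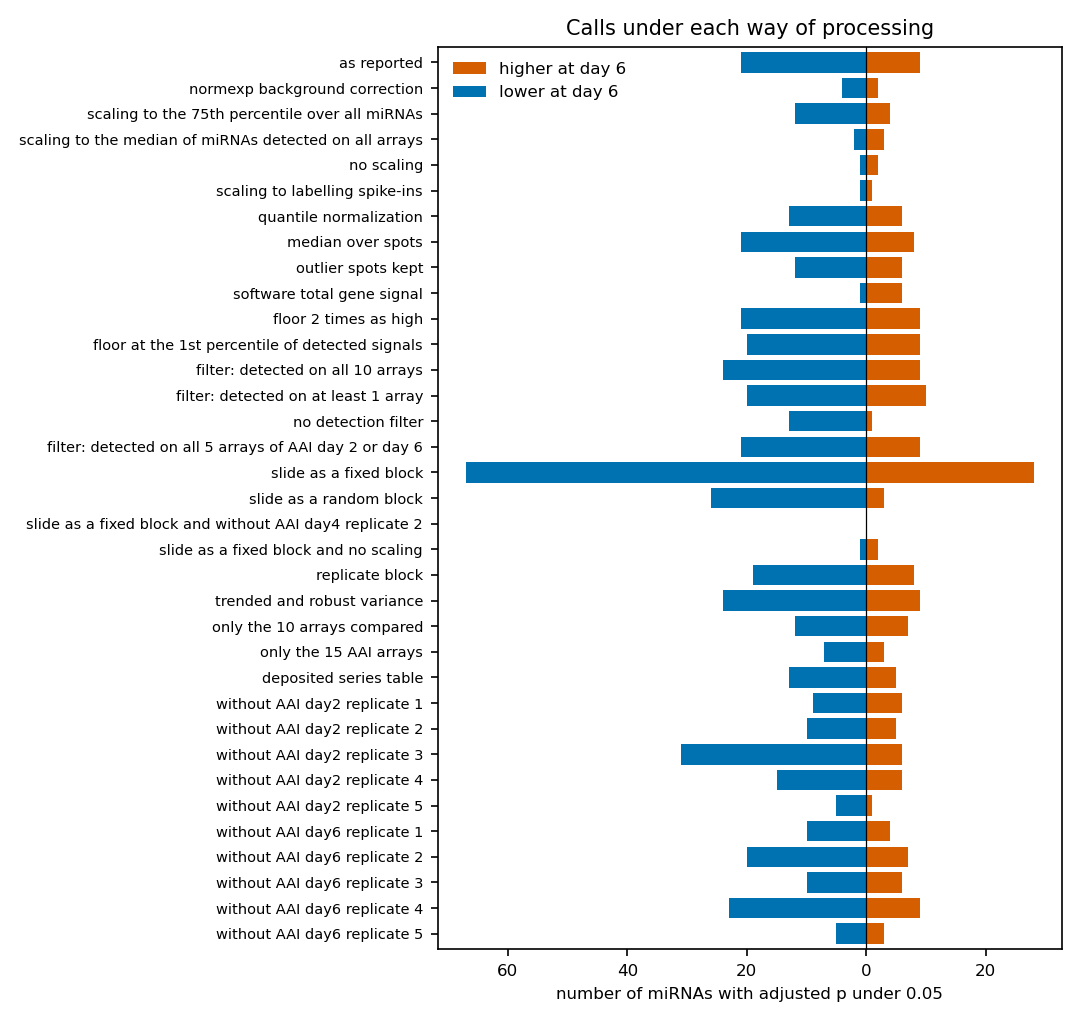
Number of miRNAs with an adjusted p under 0.05 (horizontal axis, lower at day 6 to the left, higher to the right) under each way of processing and with each array left out. The bar for the values as reported has 9 higher and 21 lower, the longest has 28 and 67 for the slide-blocked fit, and the same block without day 4 replicate 2 has 0.

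Vehicle arrays did not enter the contrast between the days, though they did contribute to the estimate of spread.

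Measures of a whole array did not differ beyond their spread. A day 2 kidney had 263, 270, 289, 264 and 261 detected miRNAs and a day 6 kidney 304, 250, 293, 308 and 291; 4 of the 5 day 6 arrays were above all day 2 arrays and 1 below. The means were 269.4 ± 11.5 and 289.2 ± 23.1 (SD, n = 5 each; 2-sided exact permutation p = 0.127, 0.321 adjusted over 3 measures). The median distance of an array's levels from its group's median profile was 0.0986 ± 0.0538 at day 2 and 0.123 ± 0.0117 at day 6 (SD, n = 5 each; exact permutation p = 0.373, adjusted 0.373). The 10 highest miRNAs held 40.9% ± 0.643 and 41.8% ± 1.43 of the summed signal (SD, n = 5 each; exact permutation p = 0.214, adjusted 0.321). The smallest p these tests can give is 0.00794. Each measure passed an unadjusted 0.05 when 1 array was left out: the detected number without day 6 replicate 2 (29.6 more, exact p = 0.0159), the distance without day 2 replicate 3 (0.0412 more, exact p = 0.00794) and the share without day 6 replicate 4 (1.57 points more, exact p = 0.0159).

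Detection shifted more often towards day 6 than towards day 2. Of the 719 rat miRNAs, 235 were detected on all 10 arrays, 381 on none, and 0 went from all 5 arrays of one day to 0 of the other. More day 6 than day 2 arrays detected 69 miRNAs and the reverse held for 24. A gain of 3 or more arrays was seen for 14 miRNAs and a loss of 3 or more for 1. Tested among the 14 were miR-351-3p (2 to 5 arrays, change 1.24, limma adjusted p = 0.185), miR-466b-2-3p (1 to 5, 0.66, 0.218) and miR-33-5p (2 to 5, 0.36, 0.598). The others tested were miR-196c-3p (2 to 5, -0.03, 0.943) and miR-20a-3p (1 to 5, -0.0002, 0.999). None of these passed, and the rest of the 14 were detected too rarely to be tested.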

How the data were processed

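Total RNA of kidneys was labelled with Cy3 and hybridised to a 1-colour Agilent rat miRNA array (719 miRNAs, 1730 probes, 14380 spots). Per the file headers, the deposited intensity values are background-subtracted processed signals of Agilent Feature Extraction 10.7.1.1, with no scaling between arrays. The deposited series table of log2 values, whose making is not given in the sources used here, served as an alternative only. Unflagged spots were averaged per probe, probes summed per miRNA, and each array divided by its 75th percentile over the 231 miRNAs detected on all 20 arrays; values were floored at 0.0003908 (7 of 5240 tested values) and log2 transformed. The 262 miRNAs detected on all 5 arrays of at least 1 of the 4 groups were fitted by group means over 20 arrays with limma 3.58.1 in R 4.3.3 (16 residual degrees of freedom, eBayes, Benjamini-Hochberg), checked first on simulated data. Arrays have no read depth; their number limits the precision. P-values measure the spread between arrays, each labelled as a separate kidney. For limma's p-values, SEs and intervals that spread is pooled over all 4 groups and is not that of the day 2 and day 6 kidneys alone. Replicate numbers did not pair the arrays. Named are, per direction, the 15 largest called changes detected on all arrays of both days, members of 20 lists, opposite arms and neighbours within 10 kb. Members and lists were chosen with earlier results of these data known. Alternatives changed background correction, scaling, spot and probe summary, floor, filter, slide and replicate blocks, variance model, arrays fitted, the source of values, and left out each array in turn; a floor at the 1st percentile of detected signals and slide block without scaling were added after the data were seen. RefSeq tables gave names and sequences; probe coordinates are rn4, sequence coordinates GRCr8.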

Additional observations from a re-analysis of the deposited data

Results flagged for a closer look

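In 66 groups of 5 arrays, the 2 days of each called miRNA and the 3 whole-array measures, 4 held an array whose distance from its nearest neighbour was a large part of the group's range by Dixon's 95% criterion; chance flags about 1 in 20 groups. Day 6 replicate 4 had miR-192-3p at -3.69, above the other 4 day 6 arrays at -4.38 to -4.21. Day 2 replicate 4 had miR-196c-5p at -2.08, below the others at -1.86 to -1.79. Day 6 replicate 1 had miR-363-3p at -4.43, above the others at -4.68 to -4.61, and miR-378a-5p at -2.55, below the others at -2.15 to -2.01.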

How the results depend on the processing

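With 30 calls as reported, the count was 6 after normexp correction, 16 with the 75th percentile over all miRNAs, 5 with median scaling, 3 without scaling, 2 with spike-in scaling, 19 after quantile normalization, 18 with outlier spots kept, 7 from the software's total gene signal, 14 without a detection filter, 95 in the slide-blocked fit, 0 with that block and without day 4 replicate 2 (57 at an unadjusted p under 0.05 in limma), 3 with the block and no scaling, 19 from only the 10 arrays compared, 10 from only the 15 AAI arrays and 18 from the deposited series table. With slide as a random block it was 29, but only 17 of these were among the 30. That block kept 2 of the 9 rises and 15 of the 21 falls. The count was also 29 with the median over spots and with the floor at the 1st percentile, which shared 28 and 29 with the 30. It was 30 with a floor 2 times as high and with the own-group detection filter, the same 30 in each. The looser filter, detection on at least 1 array, also gave 30, but only 26 of these were among the reported 30. The count was 33 with the filter on all 10 arrays or trended and robust variance. Replicate numbers did not pair the arrays (correlations of same-numbered deviations -0.179 to 0.0129, 0 of 5 arrays closest to their own number); the replicate block gave 27 calls, 24 of them shared. Leave-one-out counts ran from 6 to 37. Causes of these shifts were not tested.

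Of the 30 changes, miR-451-5p passed in 33 of 34 alternatives and miR-34a-5p in 31. The alternative that miR-451-5p did not pass was the slide block without day 4 replicate 2. Those that miR-34a-5p did not pass were all slide-blocked fits: the block alone, without day 4 replicate 2, and without scaling. Signs turned with the software's total gene signal for miR-34c-5p (-0.52), miR-34b-5p (-0.60), miR-21-3p (-0.76) and miR-203b-3p (0.12), with normexp for miR-363-3p (0.015) and in the series table for miR-338-5p (-0.76). The detected number differed by 15.1 to 29.6 with an array left out and by -7.2 when counted above each array's lowest detected signal. The distance from the group profile differed by 0.0490 after quantile normalization (exact p = 0.0238), 0.0489 in the series table (exact p = 0.0159) and 0.0491 without a filter (exact p = 0.0159), and by 0.00837 to 0.0413 with an array left out. The share of the 10 highest differed by -0.45 points with normexp and by 0.651 to 1.57 with an array left out. Day and slide overlap fully, vehicle kidneys of day 2 were not analysed here, and dim miRNAs near background set the limit of detection.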
